A study of Homo sapiens with 8 samples.

Results

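BNIP3 and the BCL2 family are the proteins that decide, at the outer membrane of the mitochondrion, whether a mitochondrion is kept, degraded or made to trigger cell death. The 10 genes described here were chosen by name: the mitophagy receptors BNIP3 and BNIP3L, the anti-apoptotic genes MCL1 and BCL2L1, the effectors BAX and BAK1, and the BH3-only genes BID, BBC3, PMAIP1 and BCL2L11. They were 10 of the 14528 named genes in the table, with 29 of its 24812 listed transcripts, and each reached 0.5 FPKM as the mean of both conditions. SQ20B, an established line derived from a human head and neck squamous cell carcinoma, was cultured in normoxia (4 replicates) or kept in 0.5% O2 for 16 h (4 replicates), and polyadenylated RNA was sequenced. All samples were of this single line, grown in DMEM with 10% serum, and oxygen was the only labelled difference between the groups. FPKM, the unit of every level below, counts fragments per kilobase of transcript and relative to all mapped fragments, so that levels of different genes can be set side by side. The authors' table was used as 1 FPKM value per condition over the 4 replicates. Values of single replicates were not analysed and the authors' own test columns were not used, so no spread between replicates, standard error or test is given for any difference below. Fragment counts behind single values were not analysed either.

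Anti-apoptotic BCL2 proteins such as MCL1 and BCL-XL hold the effectors BAX and BAK in check, and BH3-only proteins are induced or modified by stress and either occupy the guardians or activate the effectors. Active BAX and BAK permeabilize the outer membrane and release cytochrome c. BNIP3 and BNIP3L (also called NIX) carry a BH3-like segment but are best known for tethering mitochondria to the autophagy machinery through LC3, and both are known targets of the hypoxia-inducible factors (HIFs), which bind a short DNA core in hypoxia response elements.

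Because HIF recognizes the core ACGTG or GCGTG, the window from 250 bases before to 50 bases after each RefSeq start (assembly GRCh38.p14) was searched for these letters on both strands, and overlapping matches were joined into 1 site. A palindromic CACGTG matches ACGTG on both strands and is also the E-box that other factors bind. The search covered entries of 8 of the 10 genes, with 13 promoters. No promoter of BNIP3L or MCL1 was searched, so whether theirs hold such sites was not tested. The stretches below are shown because they set the member with the largest difference in hypoxia beside 3 members with smaller ones. Site letters are in capitals, and positions count from the start, with -1 the last base before it.

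BNIP3, -147 to -118, chr10:131982041-131982070, minus strand: cgcgCACGCgccgCACGTGccaCACGCacc
BAX, -49 to -20, chr19:48954826-48954855, plus strand: cggcCACGTGaaggacgCACGTtcagcggg
BBC3, -236 to -207, chr19:47232874-47232903, minus strand: atttCACGTGagatatagattacctgcatc
BCL2L11, -150 to -121, chr2:111120764-111120793, plus strand: cctgCACGCgccggcggccgcggcgccgag

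The BNIP3 promoter held 5 sites between -143 and -100, of which 1 was a CACGTG and 4 read CACGC, the reverse complement of GCGTG. The BAX promoter also held 5 sites, all with ACGTG, between -138 and -9. At least 5 sites were found in 0.994% of the 35116 promoters of that table, at least 1 in 48.4%, and ACGTG in 21.4%. BCL2L11 and PMAIP1 had 2 sites each, BBC3 had 1, BAK1 had none, and 4 of the 5 BID promoters and 1 of the 2 BCL2L1 promoters had 1. The BID windows overlap. Its CACGTG at -106 and at -47 is the same stretch seen from different starts, and so is its GCGTG at -38 and at -12. A match describes the letters only, and binding was not measured here.

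Changes were computed as log2 of hypoxia over normoxia with 0.1 FPKM added to each value, after summing the transcripts of a gene. Of the 10 genes, 3 were at least 1.5-fold higher in hypoxia (BNIP3, BNIP3L and BCL2L11), none was at least 1.5-fold lower, and 7 lay within 1.5-fold. Among all 12106 genes that averaged at least 0.5 FPKM, 9.95% were at least 1.5-fold higher and 11.2% at least 1.5-fold lower. The median log2 change of the 10 genes was 0.035, beside -0.070 over all genes. Genes above 1.5-fold made up 46.9% of all genes past this limit in either direction, and 78.5% of them when the FPKM columns were scaled to equal sums. The columns summed to 536005 FPKM in normoxia against 458431 in hypoxia, so that this scaling added 0.23 to nearly every log2 change and moved the median of all genes to 0.15.

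**Figure D1:**
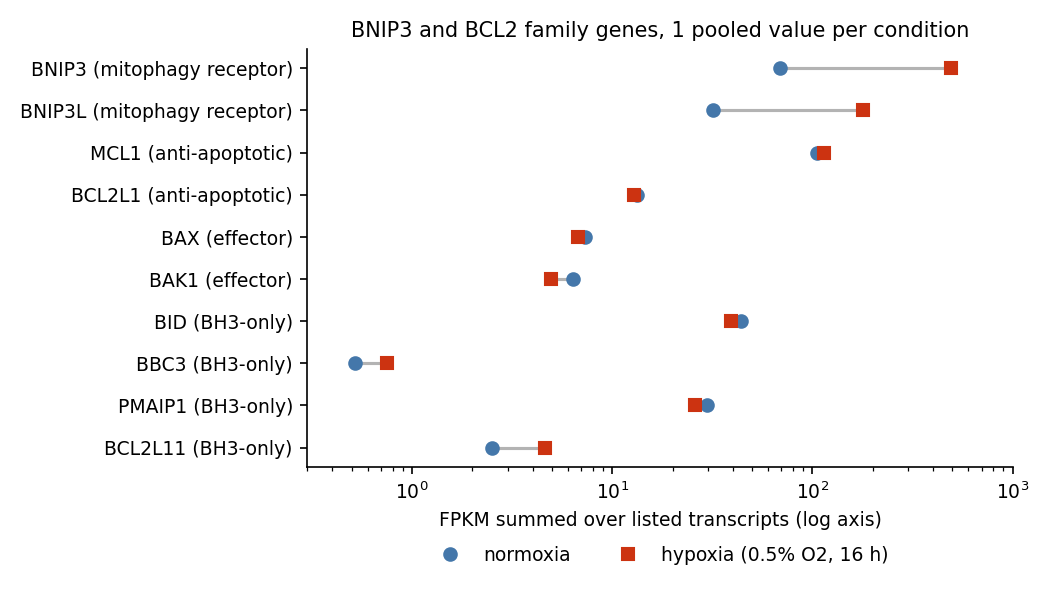
FPKM of each gene, summed over its listed transcripts, on a log axis, with normoxia as circles and hypoxia as squares. Each point is the authors' single value over 4 replicates, so no error is drawn. BNIP3 went from 68.9 to 490 FPKM and BNIP3L from 31.9 to 178, while the points of MCL1, BCL2L1, BAX, BID and PMAIP1 nearly coincide.

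In normoxia the order of levels was MCL1 (105 FPKM), BNIP3 (68.9), BID (44.2), BNIP3L (31.9), PMAIP1 (29.8), BCL2L1 (13.3), BAX (7.29), BAK1 (6.40), BCL2L11 (2.51) and BBC3 (0.516). In hypoxia BNIP3 (490 FPKM) and BNIP3L (178) stood above MCL1 (114), and the other genes kept their order. Whether neighbours such as BNIP3L and PMAIP1, or BAX and BAK1, differed beyond their spread cannot be said from 1 value each. BNIP3 and BNIP3L together made up 32.6% of the summed FPKM of the 10 genes in normoxia and 76.1% in hypoxia. The sum over the other 8 genes was 209 FPKM in normoxia against 210 in hypoxia.

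BNIP3, on chromosome 10 of hg19 (133781188 to 133795471, minus strand), encodes a receptor of the outer membrane that recruits autophagosomes. Its single listed transcript, NM_004052, was at 68.9 FPKM in normoxia against 490 in hypoxia, a 7.11-fold difference (log2 change 2.83). In hypoxia it was the 111th most abundant of 12106 genes, from place 1367 in normoxia, and 21 genes had a larger log2 change. The annotation names 44 pseudogenes of BNIP3, most of them processed copies on chromosome 19. How fragments that match such a copy were assigned was not tested, and the BNIP3 level is uncertain to that extent.

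BNIP3L lies on chromosome 8 of hg19 (26240570 to 26363152, plus strand) and encodes the receptor that clears mitochondria from maturing red cells. NM_004331, its single listed transcript, was at 31.9 FPKM in normoxia against 178 in hypoxia, a 5.57-fold difference (log2 change 2.48), which placed it 44th by log2 change. The FPKM ratio of BNIP3 to BNIP3L was 2.16 in normoxia and 2.75 in hypoxia. Both genes were thus more abundant in hypoxia, and BNIP3 was the more abundant of the pair in each condition.

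Among the 471 genes within 2-fold of the mean FPKM of BNIP3, 1 had a larger log2 change. The 3 nearest to it in log2 change were P4HA1 (2.63, from 58.6 to 362 FPKM), PLOD2 (1.98) and FAM162A (1.65). P4HA1 and PLOD2 encode hydroxylases of collagen. For BNIP3L, 3 of 1314 such genes had a larger log2 change, and the nearest were HILPDA (2.61), LIMCH1 (2.28) and SLC5A3 (2.17). HILPDA encodes a lipid droplet protein. The likeness rests on 2 values per gene, 1 per condition.

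**Figure D2:**
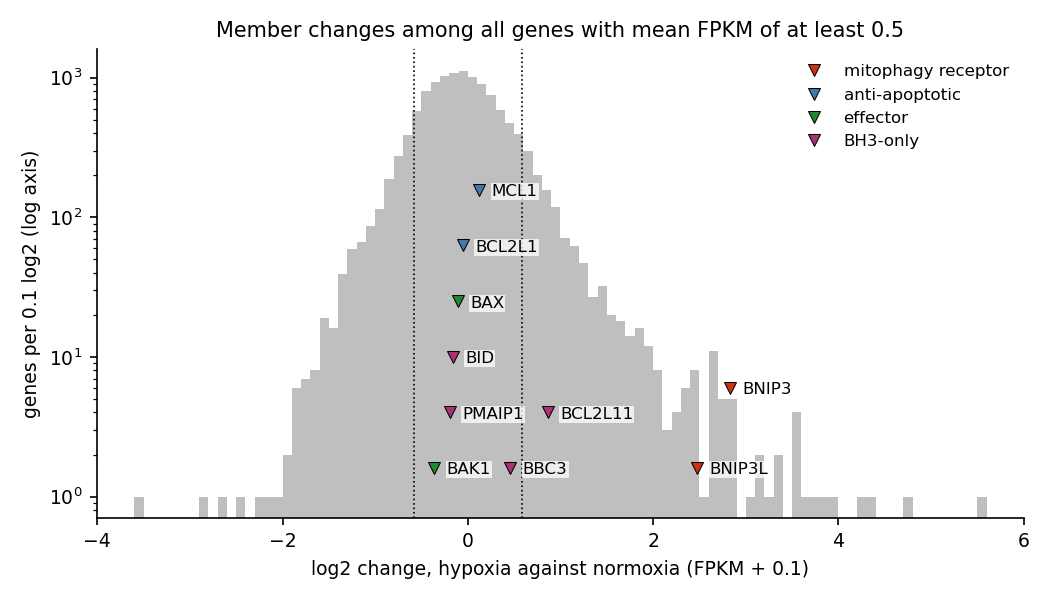
Histogram of log2 changes (hypoxia against normoxia, 0.1 FPKM added) of the 12106 genes that averaged at least 0.5 FPKM, in bins of 0.1 on a log count axis, with triangles at the log2 change of each member, coloured by role. The height of a triangle carries no value, and dotted lines mark 1.5-fold. BNIP3 (2.83) and BNIP3L (2.48) lie in the sparse right tail, BCL2L11 (0.86) just past the dotted line, and the other 7 between the lines.

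MCL1 and BCL2L1, the anti-apoptotic members, differed little between the conditions. MCL1 encodes a short-lived guardian that binds BAK and several BH3-only proteins, and lies on chromosome 1 of hg19 (150533371 to 150552214, minus strand). Its summed level was 105 FPKM in normoxia against 114 in hypoxia (log2 change 0.12), and the log2 change stayed above 0 under each scaling tried, with 0.36 after quantile normalization as the highest. BCL2L1, on chromosome 20 (30252255 to 30311792, minus strand), encodes BCL-XL and, by another splice site, the pro-apoptotic BCL-XS. Its summed level was 13.3 FPKM in normoxia against 12.8 in hypoxia, a log2 change of -0.053 that became 0.17 with columns scaled to equal sums and 0.017 when centred on the median of all genes. MCL1 was 7.91 times as abundant as BCL2L1 in normoxia and 8.94 times in hypoxia.

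For both genes 1 transcript carried nearly all of the estimated FPKM. NM_001197320 of MCL1, which encodes a form with a shortened first coding exon, stood at 103 FPKM in normoxia against 113 in hypoxia, 98.5% and 98.8% of the gene. NM_021960, which encodes full-length MCL1, was listed at 1.16 and 0.983 FPKM, and NM_182763, which encodes the short pro-apoptotic form, at 0.460 and 0.393. These transcripts share most of their sequence, and how Cufflinks divided their fragments was not tested. NM_138578, the BCL-XL transcript, stood at 13.2 FPKM in normoxia against 12.7 in hypoxia. NM_001191, the BCL-XS transcript, was listed at 0.0251 and 0.122 FPKM, 0.189% and 0.953% of the gene, both below the limit of 0.5 FPKM.

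BAX and BAK1 encode the effectors that form pores in the outer membrane, and both were among the less abundant members. BAX, on chromosome 19 of hg19 (49458072 to 49465055, plus strand), was at 7.29 FPKM in normoxia against 6.76 in hypoxia. Its log2 change of -0.11 turned to 0.11 with columns scaled to equal sums and was -0.038 relative to the median of all genes. BAK1, on chromosome 6 (33540324 to 33548070, minus strand), was listed with the transcript NM_001188 at 6.40 FPKM in normoxia against 4.95 in hypoxia. Its log2 change was -0.36, the lowest of the 10 genes, and lay between -0.37 and -0.14 over the scalings. The annotation names 2 processed pseudogenes of BAK1, whose share of the fragments was not tested.

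The 3 BAX transcripts differed in direction. NM_004324, the beta form without the usual C-terminal anchor, stood at 4.59 FPKM in normoxia against 3.69 in hypoxia (log2 change -0.31). NM_138761, the alpha form that encodes standard BAX, was listed at 2.22 and 3.04 FPKM (log2 change 0.44), so that its share of the gene was 30.4% in normoxia and 44.9% in hypoxia. The delta form, NM_138763, was listed at 0.488 and 0.0325 FPKM, and its mean lay below 0.5. Both of the more abundant transcripts stayed within 1.5-fold while their shares drew closer together.

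**Figure D3:**
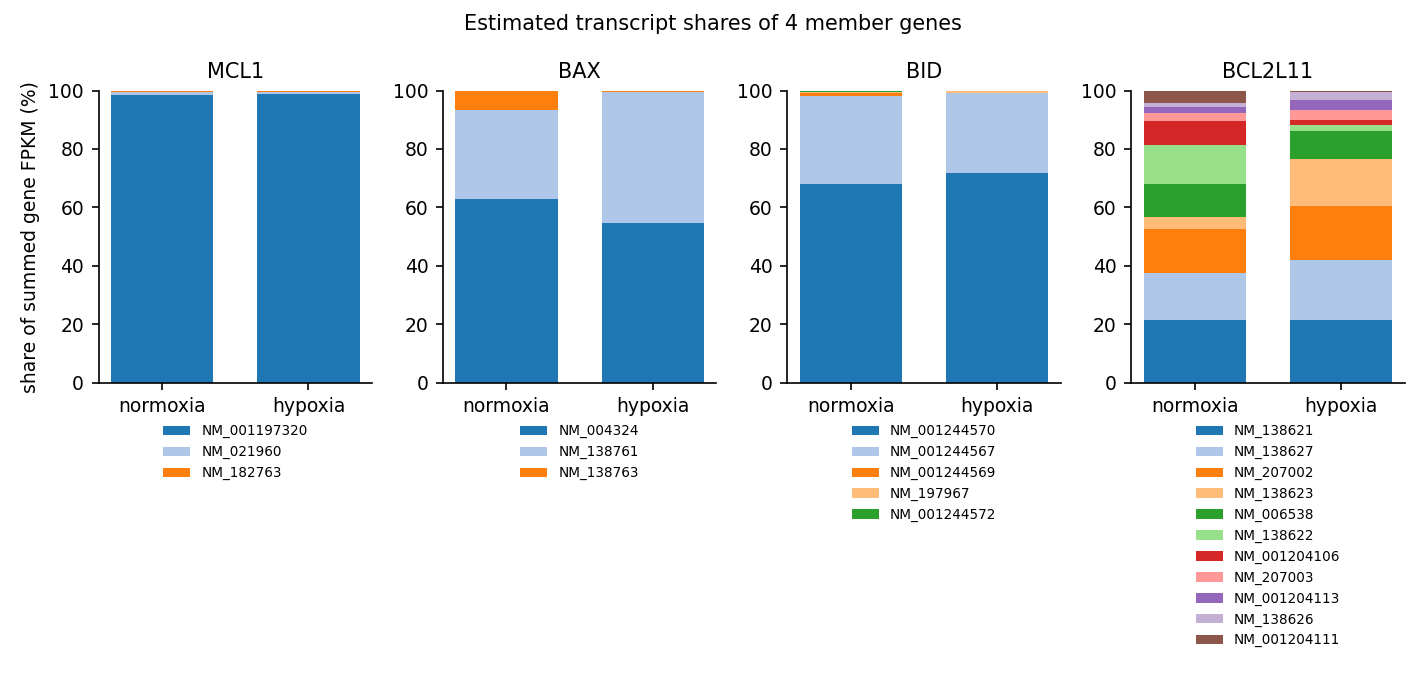
Stacked bars of each transcript's share (in percent) of the summed FPKM of MCL1, BAX, BID and BCL2L11 in normoxia and hypoxia, from the authors' single value per condition. The share of NM_138761 of BAX was 30.4% in normoxia and 44.9% in hypoxia, and that of NM_138623 of BCL2L11 was 4.17% and 16.0%, while MCL1 kept over 98% in 1 transcript.

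The 4 BH3-only genes covered a wide range of levels. BID, which is cut by caspase 8 to link death receptors to mitochondria, lies on chromosome 22 of hg19 (18216904 to 18257536, minus strand). It was at 44.2 FPKM in normoxia against 39.4 in hypoxia, a log2 change of -0.17. NM_001244570 and NM_001244567 carried 68.0% and 30.2% of it in normoxia, with log2 changes of -0.089 and -0.31, and the other 3 listed transcripts lay below a mean of 0.5 FPKM. PMAIP1, which encodes NOXA, the BH3-only protein that binds MCL1, lies on chromosome 18 (57567228 to 57571537, plus strand). Its transcript NM_021127 was at 29.8 FPKM in normoxia against 26.0 in hypoxia, a log2 change of -0.19. Scaling to equal sums turned both changes, to 0.060 for BID and 0.031 for PMAIP1.

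BBC3 encodes PUMA, which binds every anti-apoptotic member, and lies on chromosome 19 of hg19 (47724079 to 47736023, minus strand). It was the least abundant of the 10 genes, with its transcript NM_001127242 at 0.516 FPKM in normoxia against 0.747 in hypoxia. The log2 change was 0.46, and it was 0.20 with 1 FPKM added and 0.66, past 1.5-fold, with columns scaled to equal sums. At such levels the added value sets much of the change, and the level of BBC3 stood below that of more than 95% of the genes considered in each condition.

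BCL2L11 encodes BIM, an activator of BAX and BAK that is made in several splice forms, and lies on chromosome 2 of hg19 (111876955 to 111926021, plus strand). Summed over 11 transcripts it was at 2.51 FPKM in normoxia against 4.63 in hypoxia, a 1.82-fold difference (log2 change 0.86). The change stayed between 0.68 and 1.08 under the pseudocounts, scalings and transcript choices tried. Of the 11 transcripts, 8 were higher in hypoxia and together went from 1.85 to 4.44 FPKM, and 3 were lower and together went from 0.656 to 0.193 FPKM. A mean of at least 0.5 FPKM was reached by 3 of them, and by 2 of these, NM_138627 and NM_207002, only through their hypoxia values. NM_138621, the BIM-EL form, was listed at 0.541 and 1.00 FPKM, NM_138627 at 0.400 and 0.937, and NM_207002 at 0.378 and 0.859. NM_138623, whose mean lay just below the limit, was listed at 0.104 and 0.740 FPKM. The highest of the 11 reached 1.00 FPKM in hypoxia, so the higher level of this gene was spread over several low values.

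Over all 10 genes, 15 of the 29 listed transcripts had a mean of at least 0.5 FPKM, and each of the 10 genes had at least 1 of them. Transcripts of 1 gene share reads and are not independent.

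Sums by role were compared as ratios, which a linear scaling of the columns cannot change. BAX and BAK1 together reached 13.7 FPKM in normoxia against 11.7 in hypoxia, against 118 and 127 FPKM for MCL1 and BCL2L1 together, so that the ratio of effectors to anti-apoptotic members was 0.116 and 0.0921. The ratio of the 4 BH3-only genes to the anti-apoptotic members was 0.651 in normoxia and 0.557 in hypoxia. BAX was 1.14 times as abundant as BAK1 in normoxia and 1.36 times in hypoxia. Each of these ratios differed by less than 1.5 times between the conditions, and they describe RNA, not protein. The sums take all listed transcripts of a gene together. NM_001197320 of MCL1 made up 103 of the 118 FPKM in normoxia and 113 of the 127 in hypoxia. NM_004324, the beta form of BAX, made up 4.59 of 13.7 FPKM and 3.69 of 11.7. Whether each listed form acts in the role of its gene was not tested.

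**Figure D4:**
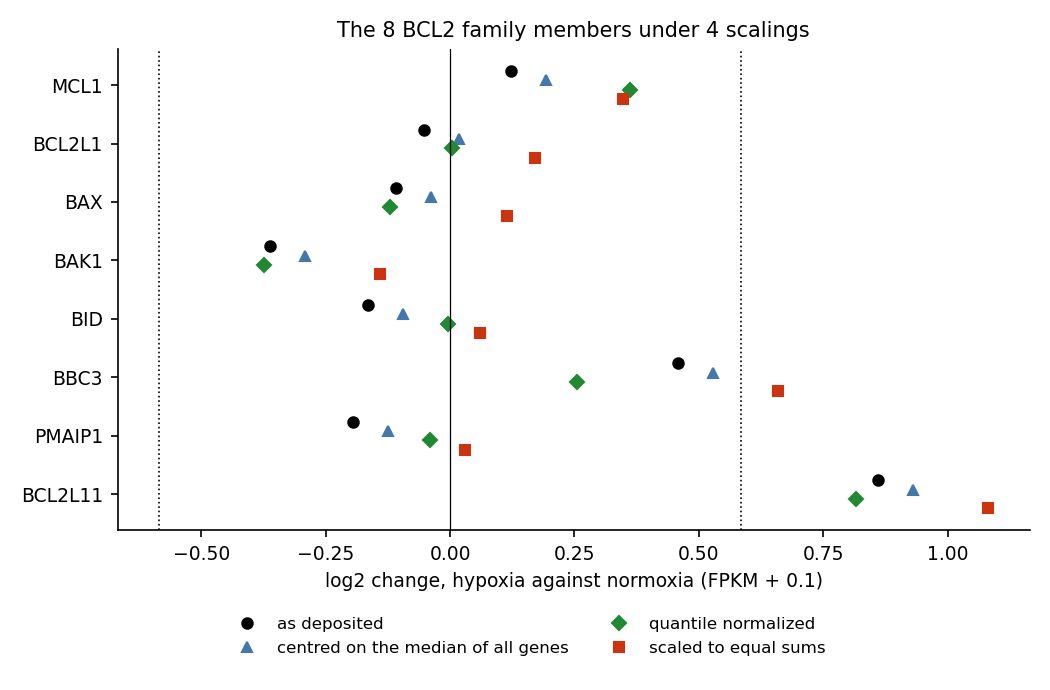
Log2 change (hypoxia against normoxia, 0.1 FPKM added) of the 8 BCL2 family genes other than BNIP3 and BNIP3L under 4 scalings of the FPKM columns, 1 symbol each. Dotted lines mark 1.5-fold. BCL2L11 lies past the line under all 4, BBC3 only with columns scaled to equal sums, and BCL2L1, BAX, BID and PMAIP1 lie on both sides of 0.

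Genes that work beside the members were taken from lists chosen by function. The lists held 66 genes outside the 10, of which 61 had a mean FPKM of at least 0.5, and 8 of these were at least 1.5-fold higher and 10 at least 1.5-fold lower in hypoxia, with a median log2 change of -0.032. With columns scaled to equal sums, 14 were at least 1.5-fold higher and 3 at least 1.5-fold lower, beside 18.3% and 5.01% of all genes under that scaling. As deposited, 9.95% and 11.2% of all genes were past 1.5-fold on these sides. These shares are repeated below with the counts of the other lists. Among the remaining BCL2 family genes and relatives, 9 had a mean of at least 0.5 FPKM, and 2 of them were past 1.5-fold. BMF, a BH3-only gene whose product is held at the cytoskeleton, was at 0.672 FPKM in normoxia against 1.68 in hypoxia (log2 change 1.20), and BCL2L14 at 0.422 and 0.821 (0.82), so that BCL2L14 reached the limit of 0.5 only through its hypoxia value. BCL2 itself was at 0.505 and 0.356 FPKM and BCL2A1 at 0.212 and 0.214, both with a mean below 0.5 and so not among the 9. BCL2L2, which encodes BCL-W, was at 6.62 and 7.52 FPKM. BIK (18.2 and 19.5 FPKM) was the most abundant BH3-only gene of this list, and BCL2L13 (20.5 and 20.1 FPKM), itself a mitophagy receptor, the most abundant relative. BOK, the third effector, was at 1.97 and 1.69 FPKM.

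Of 13 mitophagy receptors and regulators with a mean of at least 0.5 FPKM, 2 were at least 1.5-fold higher and 2 at least 1.5-fold lower. Over all genes the shares were 9.95% and 11.2%. PINK1, the kinase that marks depolarized mitochondria, was at 10.7 FPKM in normoxia against 16.3 in hypoxia (log2 change 0.60), and OPTN, which links ubiquitin to autophagosomes, at 18.1 and 31.0 FPKM (0.77). PGAM5, a mitochondrial phosphatase, was at 32.1 and 15.8 FPKM (-1.02), and PHB2, a prohibitin of the inner membrane and the most abundant of the list, at 149 and 94.2 FPKM (-0.66). With columns scaled to equal sums the counts were 3 higher and 1 lower, beside 18.3% and 5.01% of all genes. PHB2 (-0.43) then came within 1.5-fold and USP30 (0.77), a deubiquitinase of mitochondria, went past it. The highest log2 change on this list as deposited, 0.77 for OPTN, was below those of BNIP3 and BNIP3L. FUNDC1, another receptor for hypoxic mitophagy, was at 29.0 and 25.7 FPKM (-0.17).

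Downstream of BAX and BAK, CYCS, which encodes cytochrome c, was at 129 FPKM in normoxia against 72.6 in hypoxia (log2 change -0.83), and CASP9, the caspase of the apoptosome, at 1.89 and 3.45 FPKM (0.83). They were the 2 genes past 1.5-fold among 7 apoptosome and released factors as deposited. With columns scaled to equal sums APAF1 was past it too, at 0.72 (0.49 as deposited). Among 7 caspases and adaptors, FADD (30.4 and 19.4 FPKM, -0.65) was the only gene past 1.5-fold. With columns scaled to equal sums FADD was within it (-0.42) and CASP10, at 4.07 and 5.78 FPKM, was past it (0.72). Of 4 inhibitors of apoptosis, BIRC3 was higher (22.1 and 38.7 FPKM, 0.80) and BIRC5, which encodes survivin and is also a mitotic protein, was lower (81.4 and 47.3 FPKM, -0.78, and -0.56, within 1.5-fold, with equal sums). The 3 VDAC channels lay within 1.5-fold, with VDAC2 the most abundant at 230 and 199 FPKM, and so did all 6 genes that set the turnover of MCL1 protein, of which USP9X was the most abundant at 28.7 and 30.3 FPKM. With columns scaled to equal sums, HUWE1, a ubiquitin ligase for MCL1, was past 1.5-fold (0.76, against 0.53 as deposited). Beside the counts of these lists, 9.95% of all genes were at least 1.5-fold higher and 11.2% at least 1.5-fold lower as deposited. With equal sums these shares were 18.3% and 5.01%.

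Among 12 transcription factors known to act on member genes, 2 were at least 1.5-fold higher and 5 at least 1.5-fold lower in hypoxia. Over all genes the shares were 9.95% and 11.2%. EPAS1, which encodes HIF2α, was at 19.9 FPKM in normoxia against 34.7 in hypoxia (log2 change 0.80), and FOXO1 at 1.81 and 2.89 FPKM (0.65). HIF1A, whose protein is controlled mainly by its stability, was at 253 and 141 FPKM (-0.85). ATF4 was at 330 and 191 FPKM (-0.79), DDIT3, which encodes CHOP, at 48.6 and 28.6 (-0.76), MYC at 23.8 and 14.5 (-0.71) and E2F1 at 9.41 and 6.12 (-0.61). With columns scaled to equal sums the counts turned to 4 higher and 1 lower, beside 18.3% and 5.01% of all genes. HIF1A (-0.62) was then the only gene past 1.5-fold on the lower side, and ARNT and FOXO3, within 1.5-fold as deposited (0.54 and 0.53), were past it on the higher side (each 0.76).

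**Figure D5:**
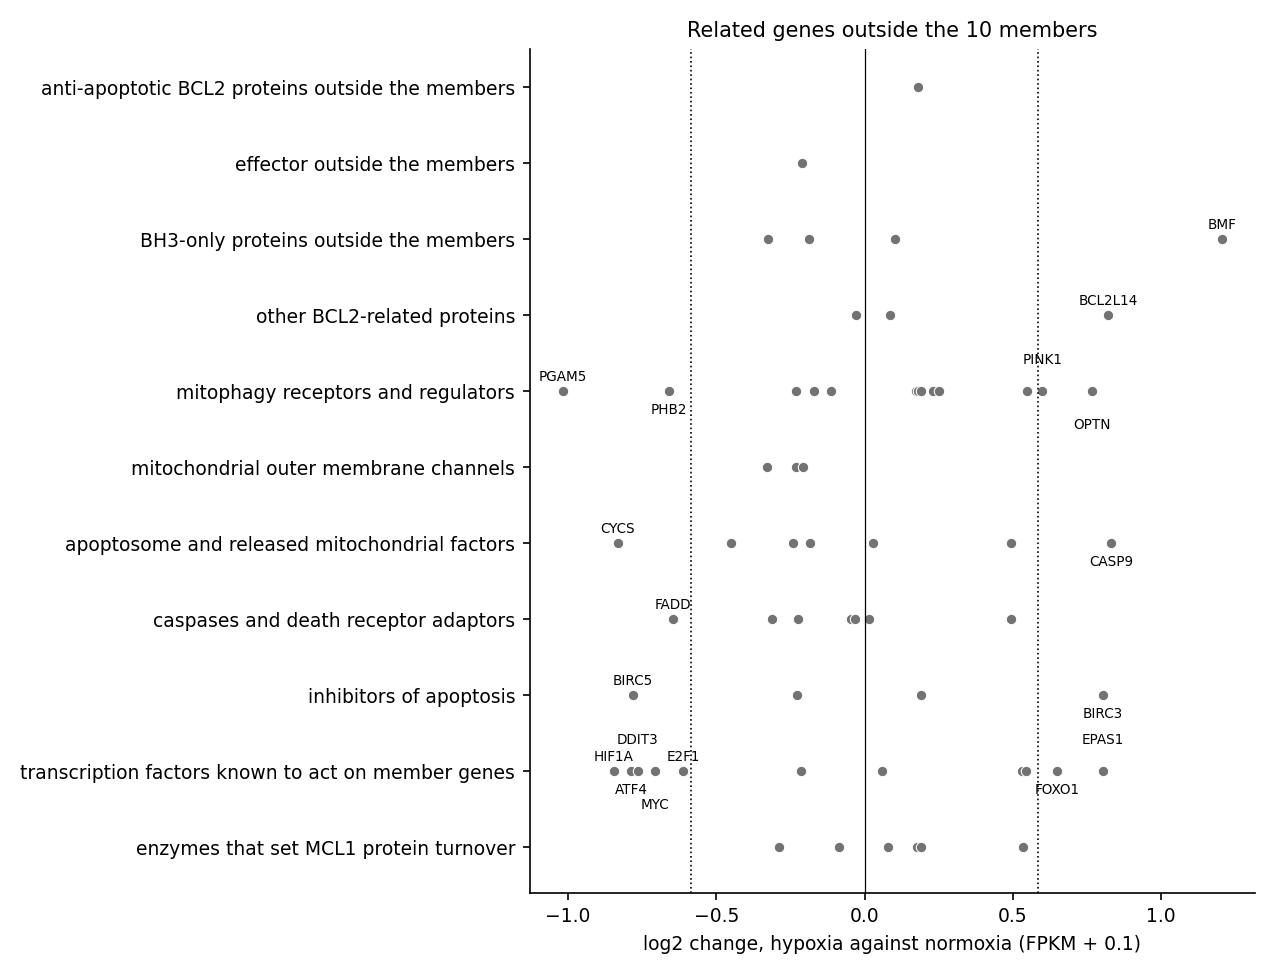
Log2 change (hypoxia against normoxia, 0.1 FPKM added) of 61 genes of 11 lists outside the 10 members, 1 point per gene with a mean FPKM of at least 0.5, with names for those past the dotted lines at 1.5-fold. Points past the lines number 8 on the right and 10 on the left, and the farthest are BMF (1.20) and PGAM5 (-1.02). Of all genes, 9.95% lay past the right line and 11.2% past the left.

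The label of the cells and of the treatment was checked against marker genes. Of 6 squamous epithelial markers that were analysed, KRT5 was at 398 FPKM in normoxia against 442 in hypoxia, CDH1 at 61.1 and 82.6 and TP63 at 42.8 and 44.6, and KRT6A was the lowest at 5.10 and 3.26. CDH5, the only marker of leukocytes, endothelium or fibroblasts that was analysed here, was at 4.78 and 2.83 FPKM, and its part in the results was not tested. All 6 genes of the low oxygen response that were analysed were at least 2-fold higher in hypoxia, with log2 changes from 1.02 (VEGFA) to 5.58 (NDRG1). The planned markers KRT14, LDHA, PTPRC, CD3E, PECAM1, COL1A1, DCN and PDGFRB had no value here, so the check was incomplete. In bulk RNA, a change in the share of cells that express a gene and a change in RNA per cell cannot be told apart.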

How the data were processed

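SQ20B cells in normoxia and in hypoxia were compared, with 4 replicates each, grouped by their source label. The authors aligned reads of poly(A)-selected stranded libraries to RefSeq hg19 with STAR 2.3.0.1 and used the Cufflinks suite 2.1.1 with standard parameters. The FPKM values of the deposited table are the authors', 1 per condition and transcript over its replicates. Its fold changes, test statistics, p-values and q-values hold the authors' own comparison and were not used. Identifiers were paired with symbols through RefSeq (GRCh38.p14, names only), which matched 24293 of 24812 transcripts (97.9%), and hg19 gene positions came from GENCODE on GRCh37. FPKM was summed per gene, log2 changes used 0.1 FPKM added, and genes with a mean below 0.5 FPKM were left out. The added value understates changes of low genes. Past 1.5-fold is a description, not a test. The text names all 10 members and their transcripts with a mean of at least 0.5 FPKM, and of each list the genes past 1.5-fold and the most abundant one, except for items not reported here. It names further genes and transcripts (BCL2, BCL2A1, FUNDC1, FOXO3, ARNT, APAF1, CASP10, HUWE1, USP30 and transcripts below the limit) chosen after their values were seen. The members and lists were chosen with earlier results of these data known. The summing and calling were tested on simulated data with changes well past 1.5-fold and little noise. This checks the code only, not calls near the limit or the spread between replicates. Alternatives changed the added value, FPKM limit, fold, scaling and choice of transcripts. Python 3.11.15, numpy 2.4.6, pandas 2.3.3 and matplotlib 3.10.9 were used.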

Additional observations from a re-analysis of the deposited data

How the results depend on the processing

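The count of members at least 1.5-fold higher was 3, and it lay between 2 and 4 under the alternatives tried for the added value, the FPKM limit, the scaling, the choice of transcripts and the fold. No member was at least 1.5-fold lower under any of these, except that with the 1.5-fold limit divided by 1.2 the count was 1, BAK1. The share of all genes moved with these settings. It was 9.95% higher and 11.2% lower as deposited. With equal sums it was 18.3% and 5.01%, and 4 members were higher. With the limit divided by 1.2 it was 20.6% and 27.8%, and 4 members were higher. At 2-fold 2 members were higher, beside 3.2% of all genes, and with a limit of 5 FPKM 2 were, beside 6.26%. The median log2 change of the members was 0.035 and became -0.080 with a limit of 5 FPKM, which leaves out BBC3 and BCL2L11, the other alternatives giving values above 0. Changes of sign under scaling concerned BCL2L1, BAX, BID and PMAIP1. With 1 FPKM value per condition, leaving out a replicate was not possible. No paired analysis was possible because the values of single replicates were not used here.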
